A study of Mus musculus with 3 samples.

Results

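Neurogenic progenitors of the newborn mouse retina were the 669 cells that carry this cell type in the authors' annotation of the P0 library, out of 5706 P0 cells and of 14611 cells in the 3 libraries of the study. The P0 library pooled dissociated retinas of littermates from an *Sstr2* deletion line (C57BL/6NCrl-*Sstr2*em1(IMPC)Mbp/Mmucd, outbred to CD1, so the background is mixed): 1 sample labelled *Sstr2* +/+, 2 labelled *Sstr2* +/- and 2 labelled *Sstr2* -/-, all untreated and at postnatal day 0. Each sample was marked with a lipid-anchored oligonucleotide before pooling (MULTI-seq), so that all 5 were processed as 1 pool, and is called a retina here, although the number of retinas in a sample is not given in the sources used here. The +/+ retina gave 149 neurogenic progenitors, the 2 +/- retinas 116 and 155, and the 2 -/- retinas 130 and 119. With 1 +/+ retina, nothing measures how much wild-type retinas differ among themselves. Every test against +/+ takes its spread from the +/- and -/- pairs. Where 1 +/- or -/- retina was left out, its group held 1 retina and the spread came from the pair that remained.

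Transcripts were counted by unique molecular identifiers (UMIs) read from the 3' ends of messages. Neurogenic progenitors held 5472375 UMIs in all, with 2074 to 28990 per cell and a median of 6775. Summed per retina they gave 1186382 UMIs for +/+, 1034064 and 1230599 for +/- and 1013067 and 1008263 for -/-. Levels are given below as CPM (each gene's UMIs scaled to a common total per sum), always in the order +/+, first +/-, second +/-, first -/-, second -/-. Of the barcodes of these cells, 2 also occurred in the explant library and 0 in the P14 library. *Xist*, the female-specific X inactivation transcript, stood at 1604 and 1668 CPM in the first +/- and the second -/- retina and at most at 3.37 CPM in the other 3, so both sexes occurred within the +/- and within the -/- pair.

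In the developing retina, multipotent primary progenitors divide and keep the Notch pathway active. A fraction of them pass into a neurogenic state, in which basic helix-loop-helix (bHLH) proneural factors are raised, Notch ligands are displayed to neighbouring cells, and a last division or divisions yield postmitotic precursors. Around birth those precursors become mainly rod photoreceptors, amacrine cells and, later, bipolar cells. By then retinal ganglion cells, horizontal cells and cones have mostly been made already.

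All 5 markers given for neurogenic progenitors were higher in every retina of this type than in any retina of the 4 other annotated types. *Neurog2*, a proneural bHLH factor, stood at 306, 280.4, 336, 227 and 339 CPM. Its mean was 298 CPM against 79.8 in amacrine cells, 15.4 in photoreceptors and 11.5 in primary progenitors. *Olig2*, a bHLH factor known in retina from progenitors close to their terminal division, had 106, 121, 94.3, 81.9 and 93.2 CPM, and its mean in the next type, amacrine cells, was 13.6 times lower. For *Hes6*, a Hes family member that opposes *Hes1*, the values were 1538, 1817, 1646, 1570.5 and 1674 CPM against a mean of 456 in primary progenitors. The antiproliferative gene *Btg2* had 630.5, 649, 768, 601 and 769.6 CPM, only 1.45 times the mean of 471 in photoreceptors. These 5 genes carried the label in all 5 retinas, with the narrowest margin for *Btg2*. Because the authors drew the types from the same counts, no test accompanies any comparison of levels between types.

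Among the 6107 genes with at least 100 UMIs in neurogenic progenitors, 195 (3.19%) had their lowest neurogenic retina above every retina of every other type. Most exceeded the next type only slightly: the median ratio to the next highest type was 1.52, with 53 genes above 2-fold, 11 above 5-fold and 6 above 10-fold. The next highest type was primary progenitors for 107 of the 195, photoreceptors for 54, amacrine cells for 30 and retinal ganglion cells for 4. Across these 6107 genes, log2(CPM + 1) of neurogenic progenitors had a Pearson r of 0.911 with primary progenitors and 0.903 with photoreceptors. It was 0.802 with amacrine cells and 0.665 with retinal ganglion cells. The genes entered by their level in neurogenic progenitors, so genes found mainly in other types were left out. These correlations are across genes of 1 pooled library, and genes are not independent replicates. Over this set of genes the cells lay about as near to photoreceptors as to primary progenitors.

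The 15 genes with the largest ratios fell into a few kinds. Transcription factors were *Hes2* (22.7-fold over the next type), *Olig2* (13.6-fold), *Foxn4* (5.19-fold), which is needed for amacrine and horizontal cells, and *Mybl1* (5.11-fold), a Myb family factor. Receptors, ligands and signalling regulators were *Sstr2*, the somatostatin receptor deleted in this line (18.8-fold), the Notch ligands *Dll4* (12.3-fold) and *Dll1* (5.47-fold), the protein kinase A inhibitor *Pkib* (10.3-fold), the phosphatase *Ptpn14* (10.3-fold), the regulators of G protein signalling *Rgs13* (8.02-fold) and *Rgs16* (4.80-fold), the opioid precursor *Penk* (5.62-fold) and the adaptor *Shf* (3.87-fold). The uncharacterised *1700016K19Rik* (4.80-fold) and the radial spoke gene *Rsph10b* (4.40-fold) completed the set. Levels differed widely within it: *Mybl1* had 583, 521, 480.3, 613 and 539.5 CPM and *Pkib* 306, 323, 278, 295 and 345 CPM, whereas *Hes2* had 13.5, 28.0, 13.0, 26.7 and 37.7 CPM, from 126 UMIs in all. *Hes2*, *Ptpn14*, *Rgs13*, *Penk* and *1700016K19Rik* all averaged under 50 CPM, so their ratios rest on few molecules.

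**Figure D1:**
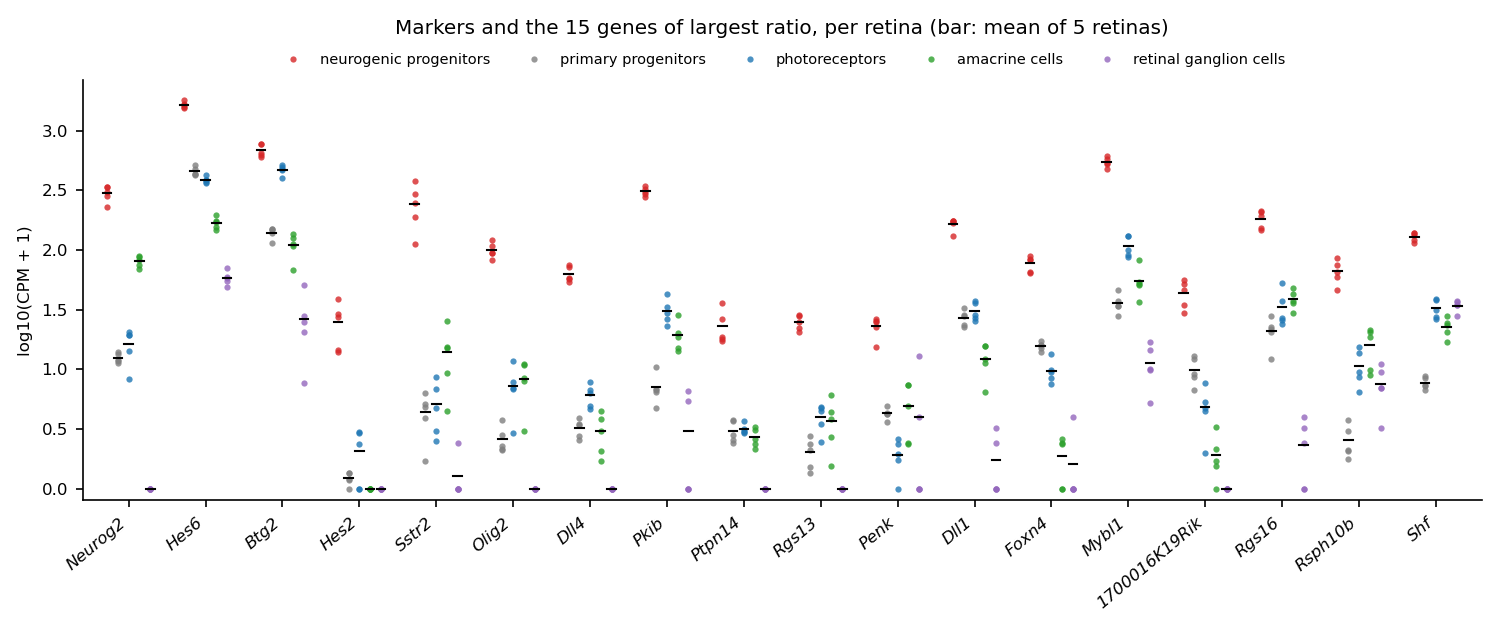
Level (log10 of CPM + 1, vertical axis) of the markers and of the 15 genes with the largest ratio to the next type, for 5 annotated cell types in each of 5 P0 retinas. Points are retinas and bars the mean of 5 retinas. Neurogenic progenitors (red) lie above every other type for each gene, by 22.7-fold for *Hes2* and by 1.45-fold for *Btg2*.

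Proneural bHLH factors act through E-box sites, so the upstream windows of these genes were searched for the letters CAGNTG, read on both strands. RefSeq promoter entries (GRCm38.p6) matched 157 of the 195 genes, and 56 of those (35.7%) held the letters within 250 bases upstream of the start, against 44.5% of all 27025 entries. Of the 5 markers 1 held them (*Hes6*), and of the 10 matched leading genes 3. The windows of *Hes6* (chr1:91414039-91414288, minus strand), *Pkib* (chr10:57631731-57631980, plus strand) and *Rgs13* (chr1:144177373-144177622, minus strand) are shown because they hold the letters and end outside the annotated gene, with the matches in capitals.
Hes6: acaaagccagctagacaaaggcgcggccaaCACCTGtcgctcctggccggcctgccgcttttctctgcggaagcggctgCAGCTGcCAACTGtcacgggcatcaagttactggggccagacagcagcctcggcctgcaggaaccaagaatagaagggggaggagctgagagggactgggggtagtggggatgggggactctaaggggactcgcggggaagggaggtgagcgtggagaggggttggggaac
Pkib: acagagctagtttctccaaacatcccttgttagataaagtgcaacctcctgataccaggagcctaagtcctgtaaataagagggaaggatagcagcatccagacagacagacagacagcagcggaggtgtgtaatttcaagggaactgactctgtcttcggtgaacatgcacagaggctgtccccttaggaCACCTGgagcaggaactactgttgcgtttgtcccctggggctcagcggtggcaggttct
Rgs13: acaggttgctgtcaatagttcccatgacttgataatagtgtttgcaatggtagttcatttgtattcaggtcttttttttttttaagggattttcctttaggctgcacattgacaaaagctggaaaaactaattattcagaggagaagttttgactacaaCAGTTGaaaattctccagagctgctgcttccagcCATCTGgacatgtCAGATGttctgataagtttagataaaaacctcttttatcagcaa
The *Hes6* window held 3 matches, which begin 220, 171 and 164 bases before the start. A match is only a run of letters, and the share among the 157 matched genes was below that of all promoters. The same held for the letters CATNTG (21% against 35%) and for TGGGAA, which is not an E-box (16.6% against 21.5%). The lower share was thus not particular to CAGNTG. The 27025 entries were not limited to genes found in these cells.

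Of the 10 proneural and neurogenic bHLH factors, 9 had every neurogenic retina above every primary progenitor retina, 0 were below and 1 overlapped, while over all 6107 genes 21.5% were above and 15% below. *Atoh7*, required for ganglion cells, had 320.3, 294, 302, 237 and 616 CPM against 3.77 in primary progenitors and 116 in photoreceptors. The second -/- retina was far above the other 4 for *Atoh7* and the first -/- retina below them. *Neurod1* (1097, 972, 789, 921 and 1007 CPM) and *Neurod4* (507, 435, 438, 583 and 536 CPM), which act in differentiating neurons, were 26.7 and 32.2 times their means in primary progenitors. Both were nevertheless highest in photoreceptors, at means of 2385 and 1329 CPM. *Ptf1a*, which commits cells to amacrine and horizontal fates, had 15.8 to 29.5 CPM, against 144 in amacrine cells.

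Photoreceptor genes were present as far as the early regulators and nearly stopped there. *Otx2*, which directs photoreceptor and bipolar fates, had 534, 569.6, 496.5, 516 and 587 CPM, against means of 807 in photoreceptors and 19.3 in primary progenitors. *Prdm1*, which favours photoreceptor over bipolar fate, had 153, 129, 134, 124 and 158 CPM, and 303 in photoreceptors. *Crx*, the next factor downstream of *Otx2*, had 32.9 to 46.6 CPM against 260.1 in photoreceptors. *Nrl*, the rod determinant, had a mean of 8.47 CPM against 362 in photoreceptors, close to the 6.72 CPM of primary progenitors, and *Rcvrn*, the calcium sensor recoverin, had 0 UMIs, which allows at most 0.548 CPM. Of the 10 listed photoreceptor and bipolar factors in the table, 5 were above primary progenitors without overlap (21.5% of all 6107 genes). Among the 10, 2 were below (15% of the 6107) and 3 overlapped. Only *Rorb*, a nuclear receptor upstream of rod genes, was highest in neurogenic progenitors, at 3072, 2942, 2842, 2862 and 2703 CPM against 2381 in amacrine cells and 2013 in photoreceptors. *Vsx1* and *Bhlhe23* were not in the table.

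Factors of amacrine, horizontal and ganglion cell fate differed widely in level. Of the 12 amacrine and horizontal factors, 6 were above primary progenitors and 6 overlapped, beside 21.5% above and 15% below over all 6107 genes. *Foxn4* had 83.4, 62.9, 65.0, 80.9 and 88.3 CPM and was highest here, while *Tfap2b*, an amacrine determinant, had a mean of 2.94 CPM against 996 in amacrine cells. The horizontal cell factor *Lhx1* had 0 UMIs. Of the 11 ganglion cell factors, 4 were above primary progenitors and 7 overlapped, with *Atoh7* the most abundant. *Pou4f2*, the ganglion cell factor that follows *Atoh7*, had 0 UMIs, and *Isl1* averaged 1.11 CPM against 366 in retinal ganglion cells.

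**Figure D2:**
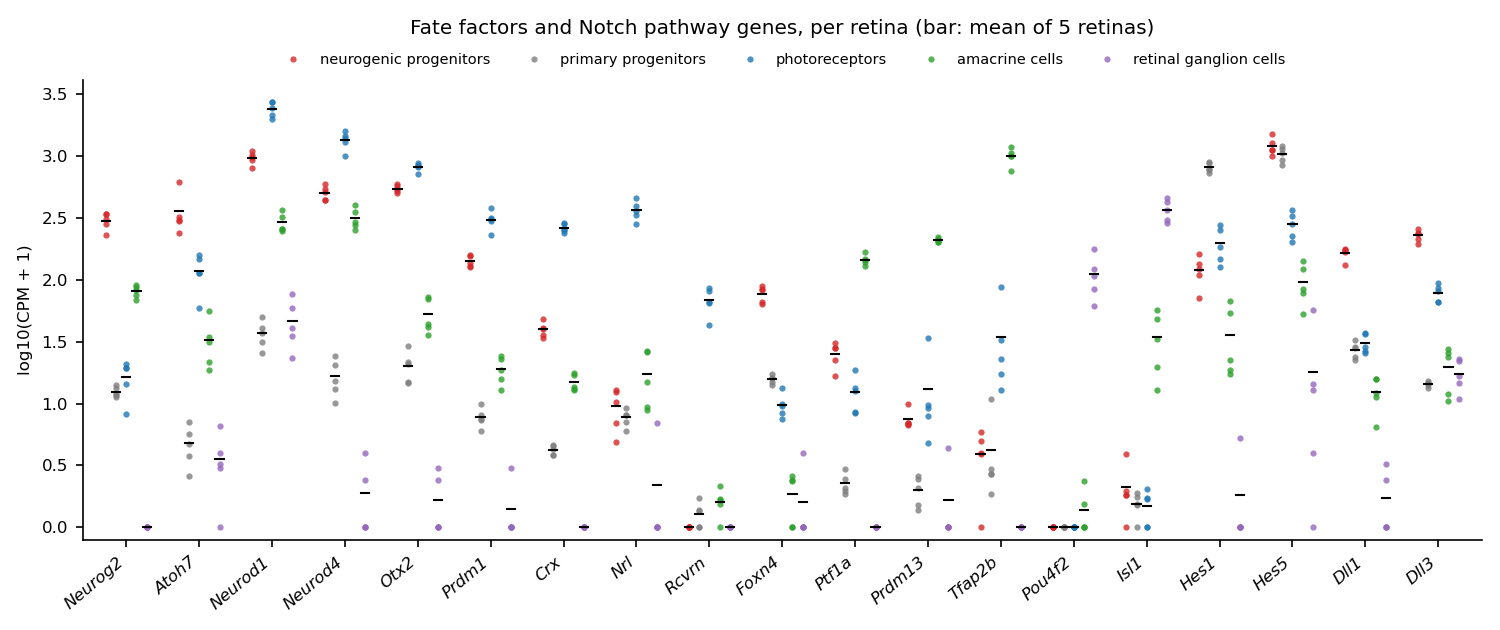
Level (log10 of CPM + 1, vertical axis) of 19 fate and Notch pathway genes in 5 annotated cell types, 1 point per retina, with bars at the mean of 5 retinas. In neurogenic progenitors (red) *Otx2* averaged 541 CPM, *Crx* 38.5 CPM and *Rcvrn* 0, while *Hes1* was below primary progenitors (gray) and *Hes5* overlapped them.

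Members of the Notch pathway differed in direction, also within a role. The Delta ligands were high: *Dll1* had 173, 174, 173, 166 and 129 CPM (primary progenitors 26.0), *Dll3* 212, 234, 193, 236 and 255 CPM (primary 13.4) and *Dll4* 74.2, 53.2, 70.7, 57.3 and 56.5 CPM (primary 2.22). *Mfng*, a glycosyltransferase that modifies Notch, had a mean of 134 CPM, 6.19 times that of primary progenitors, whereas *Lfng* of the same family was lower, at 30.4 against 57.1 CPM. The receptor *Notch1*, at a mean of 335 CPM, and *Rbpj*, the DNA-binding effector, at 254.5 CPM, were 1.45 and 2.48 times their primary progenitor means. The receptors *Notch2* and *Notch3* were below primary progenitors, at 7.37 against 25.5 CPM and 2.75 against 6.71 CPM. The targets parted: *Hes1* had 70.0, 121, 159, 131 and 108 CPM against a mean of 806 in primary progenitors, while *Hes5* had 1102.5, 995, 1482, 1110.5 and 1258 CPM and overlapped the primary progenitors (mean 1029). In all, 6 of the 15 members were above primary progenitors, 5 were below and 4 overlapped. Over all 6107 genes, 21.5% were above and 15% below. *Jag1* and *Jag2*, ligands of the other family, averaged 1.12 and 0.549 CPM.

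Listed genes of cell cycle exit and differentiation onset were mostly higher than in primary progenitors, but the cyclin-dependent kinase inhibitors among them were not. Genes of the cycle itself were partly lower. Of 10 exit and differentiation genes 6 were above, 2 below and 2 overlapped. Above were, among others, *Gadd45g* (277, 246, 275.5, 228 and 190.4 CPM, 13.4 times primary progenitors), *Insm1* (5.06 times) and *Sox4* (3.07 times). The cyclin-dependent kinase inhibitors *Cdkn1b* and *Cdkn1c* averaged 134 and 52.6 CPM, near the 155 and 54.9 of primary progenitors. The 2 genes below were the inhibitor *Cdkn1a*, at 12.6 against 34.9 CPM, and the antiproliferative *Btg1*, at 352 against 409 CPM. Of the 15 S phase genes 9 were below primary progenitors and 6 overlapped, and the 15 genes of G2 and mitosis gave the same 9 and 6. Over the 6107 genes with at least 100 UMIs, as above, 21.5% were above and 15% below. The summed G2 and mitosis level was 6403, 5686, 6491, 6183 and 6148 CPM against 8191 in primary progenitors, 1852 in photoreceptors and 320 in amacrine cells, with the chromatin protein gene *Hmgb2* the most abundant. Of the 14 progenitor transcription factors 12 were below primary progenitors, including *Lhx2*, *Sox2*, *Sox9* and *Pax6*. *Rax*, an eye field factor, was among the 2 above them, at 318 CPM against 167.

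Of the markers of other cell types, those of photoreceptors and primary progenitors were the most abundant. The 7 photoreceptor markers summed to 1850.2, 1732, 1490.3, 1608 and 1839.8 CPM, against 6068 in photoreceptors and 96.2 in primary progenitors, with *Neurod1* making up 957 CPM on average and *Rcvrn* at 0. All 8 primary progenitor markers were detected, with a summed level of 700.4, 851, 852, 945 and 873 CPM against 3239 in primary progenitors, and *Dapl1* the most abundant at 274 CPM. The 6 amacrine markers summed to 42.1 to 76.4 CPM against 3595 in amacrine cells, and the defining transporter gene *Slc32a1* was at 0. Retinal ganglion cell markers summed to 30.9 to 51.3 CPM against 10342 in that type, with *Gap43* the most abundant at 29.5 CPM and *Pou4f2* at 0. Red blood cell markers summed to at most 0.992 CPM, microglial markers to at most 2.98 and astrocyte markers to at most 1.97. Pigment epithelium markers summed to 0 to 14.8 CPM, highest in the first -/- retina, and the horizontal cell list to 2.98 to 13.8 CPM, all of it *Onecut1*. The endothelial list summed to 72.4 to 112 CPM, of which *Kdr*, which primary progenitors also carry (188 CPM), made up 77.9 CPM on average.

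In single cells, fate factors were found in part of the population. Each cell was thinned at random to 3000 UMIs, which left 664 of 669 cells, and a cell counted as positive with 1 UMI or more. *Neurog2* was detected in 37.2% of neurogenic progenitors (28.7% to 43.7% over retinas), against 2.88% of primary progenitors, 2.45% of photoreceptors and 17.9% of amacrine cells. For *Olig2* the shares were 21.7%, 0.359%, 0.589% and 1.58% in the same order. *Atoh7* was detected in 36.1% of the cells (29.3% to 51.3% over retinas), *Neurod1* in 80.6%, *Otx2* in 73.9% and *Neurod4* in 43.5%. Primary progenitors, set beside them for the level that free RNA can give, had 0.611%, 4.74%, 3.74% and 2.19%. Photoreceptors had 19.6%, 98.3%, 86.4% and 73.1%, above the neurogenic share for all but *Atoh7*, and amacrine cells 3.37%, 29.3%, 5.54% and 20.5%. Without thinning, the neurogenic shares were 54.6% for *Neurog2*, 40.4% for *Olig2*, 47.8% for *Atoh7* and 88.9% for *Otx2*, where the median cell held 6775 UMIs and that of primary progenitors 8759. *Foxn4* was rarer, in 16.7% of cells, as were *Crx*, in 11.1%, and *Ptf1a*, in 5.57%. *Tfap2b* was detected in 0.753%, near the 0.539% of primary progenitors. *Pou4f2* and *Rcvrn* were found in 0 of 664 cells, which allows a share of cells with a UMI at this depth of up to 0.452%, not a limit on cells that express them. In the opposite direction, *Hes1* was detected in 15.4% of neurogenic and 78.0% of primary progenitors.

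**Figure D3:**
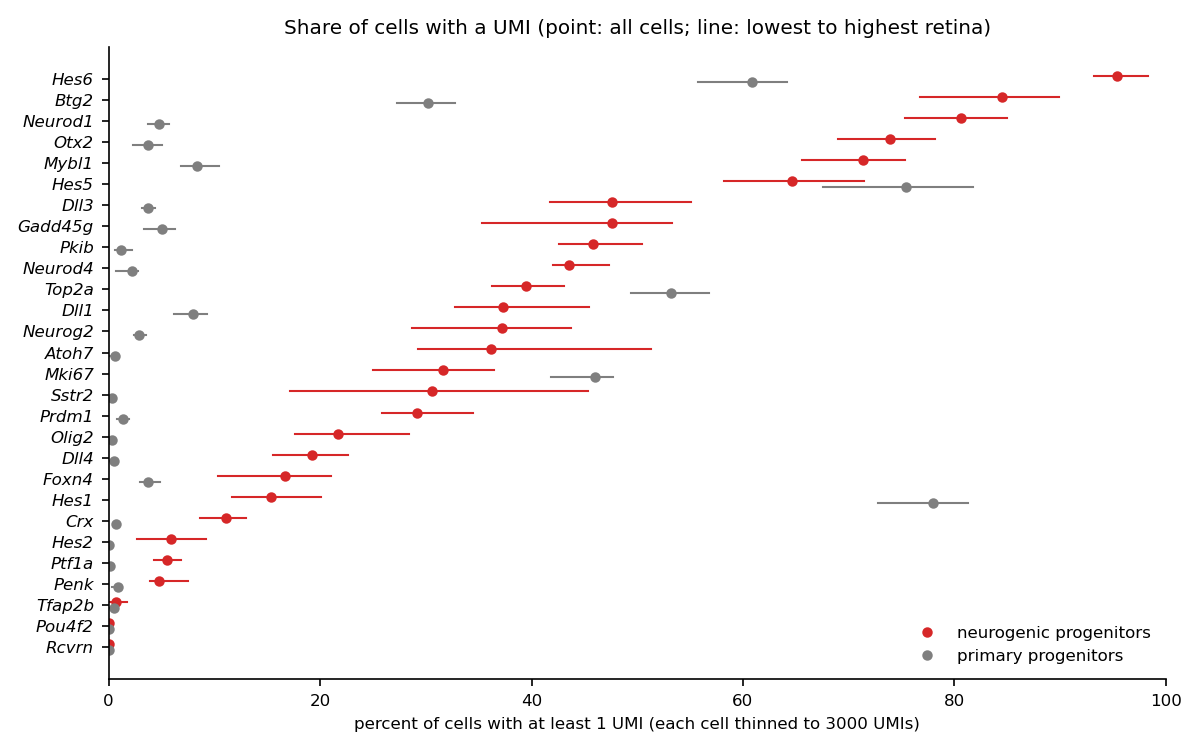
Share of cells with at least 1 UMI (horizontal axis, percent, each cell thinned to 3000 UMIs) for 28 genes in neurogenic progenitors (red) and primary progenitors (gray). Points are all cells of the type and lines run from the lowest to the highest of 5 retinas. *Hes6* was detected in 95.3% of neurogenic progenitors and *Otx2* in 73.9%, and *Hes1* in 15.4% against 78.0% of primary progenitors.

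Some fate factors were found together more often than the product of their shares within each retina, and others less often. *Neurog2* and *Olig2* shared 83 cells, 1.56 times the product, and *Olig2* was detected in 33.6% of *Neurog2*-positive and 14.6% of *Neurog2*-negative cells. *Foxn4* was likewise found with *Olig2* (44 cells, 1.88 times) and with *Neurog2* (64 cells, 1.56 times). All these pairs showed the same direction in 5 of 5 retinas. *Neurog2* and *Neurod4* shared 55 cells, 0.514 times the product, with *Neurod4* in 22.3% of *Neurog2*-positive and 56.1% of *Neurog2*-negative cells, lower in 5 of 5 retinas. Without thinning this ratio was 0.797. *Sstr2* went with *Neurog2* (116 cells, 1.50 times) and with *Atoh7* (111 cells, 1.46 times). *Otx2* and *Atoh7* (0.964 times) and *Olig2* and *Atoh7* (1.00 times) were near the product. These ratios describe shares at 3000 UMIs, where a missing UMI does not mean a missing message.

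The same genes divided along the cell cycle. After thinning, the 15 G2 and mitosis genes summed to a median of 4 UMIs per neurogenic progenitor (quartiles 1 and 27), against 13 in primary progenitors, 1 in photoreceptors and 0 in amacrine cells. A value of 0 was found in 91 cells (13.7%), 1 to 9 in 315 cells and 10 or more in 258 cells (38.9%, and 35.6% to 43.4% over retinas). The ranges are divisions of a continuous measure, with 44 cells between 7 and 12, and their cells had median depths before thinning of 6102, 6235 and 9440.5 UMIs. In cells with 0, 1 to 9, and 10 or more such UMIs, *Neurog2* averaged 95.3, 114 and 567 CPM. *Olig2* averaged 40.7, 57.7 and 163 CPM, *Foxn4* 18.5, 28.7 and 127 CPM, and *Sstr2* 74.6, 143 and 391 CPM. *Hes2* was detected only in the upper range, at 0, 0 and 55.7 CPM. *Neurod4* ran the other way, at 1220.3, 795 and 83.5 CPM, as did *Neurod1* (1525, 1234 and 671 CPM), *Otx2* (851, 663 and 441 CPM) and *Sox4* (2036, 1927 and 1256 CPM). For *Neurog2*, *Olig2*, *Foxn4* and *Hes2* the lowest retina of the upper range was above the highest retina of both other ranges, and for *Neurod4* the highest was below them. *Atoh7* followed neither order, at 560.2, 250 and 402 CPM, with overlapping retinas, and *Hes5* stayed between 1131 and 1298 CPM. The neurogenic progenitors thus held cells rich in mitotic messages together with *Neurog2*, *Olig2* and *Foxn4*, and cells poor in them with more *Neurod4*, *Neurod1* and *Otx2*.

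**Figure D4:**
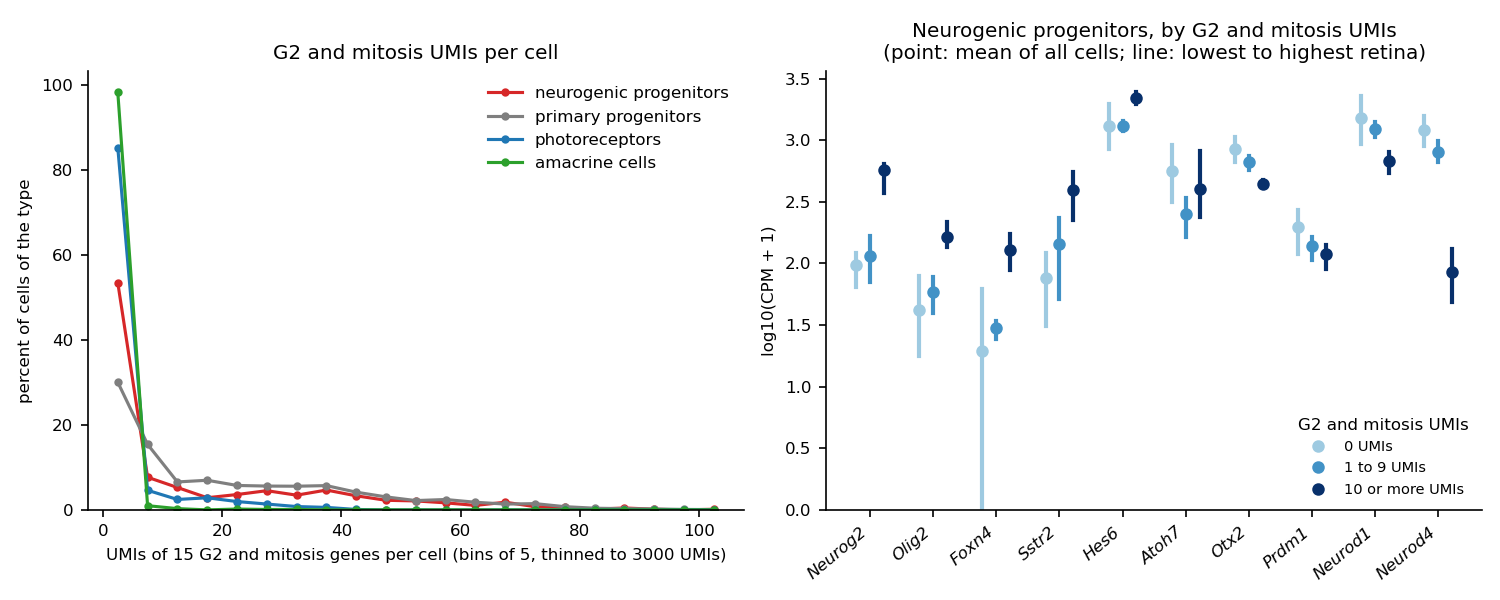
Left, distribution over cells of the summed UMIs of 15 G2 and mitosis genes per cell (horizontal axis, bins of 5, after thinning to 3000 UMIs; vertical axis, percent of cells of the type). Right, levels (log10 of CPM + 1) of 10 genes in neurogenic progenitors with 0, 1 to 9, or 10 or more such UMIs. Points are means of the 5 retina values, although the panel title calls them means of all cells. Lines run from the lowest to the highest of 5 retinas. *Neurog2* goes from 95.3 to 567 CPM and *Neurod4* from 1220.3 to 83.5 CPM.

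Neurogenic progenitors also held fewer UMIs than primary progenitors. The median per cell was 6704, 7643, 6642, 6460.0 and 7351 UMIs, against 8584, 10017, 8004, 8522.5 and 9010.0 in primary progenitors of the same retinas. The log2 difference was -0.34 ± 0.058 (SD, n = 5), a ratio of 0.789, lower in 5 of 5 retinas (exact paired permutation test over retinas, two-sided, p = 0.062, the smallest that 5 pairs allow). Against photoreceptors the difference was 0.57, higher in 5 of 5 retinas (exact permutation, p = 0.062), and against amacrine cells -0.076, lower in 4 of 5 (exact permutation, p = 0.1875). Mitochondrial genes took 3.89% ± 0.0996 (SD, n = 5) and ribosomal protein genes 20.8% ± 0.481 of the neurogenic UMIs.

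The genotype series asks whether loss of *Sstr2*, which these cells carry, shifts how many there are or what they express. They made up 12.3% of the cells of the +/+ retina (exact Clopper-Pearson 95% interval 10.5% to 14.3%, counting error only), 10.7% and 12.4% of the +/- retinas and 12.8% and 10.4% of the -/- retinas. The -/- mean of 11.6% ± 1.65 (SD, n = 2) differed from the other retinas (11.8% ± 0.971, SD, n = 3) by -0.188 percentage points (exact permutation test, two-sided, p = 0.9, where 10 splits allow no p below 0.1). The difference was smaller than the spread within either set.

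Between -/- and +/+ retinas, 3 of 8984 genes (0.0334%) passed an adjusted p of 0.05 in edgeR's quasi-likelihood fit after Benjamini-Hochberg adjustment, and 440 had an unadjusted p under 0.05. They were *Sstr2* and *Mxra7*, which were higher in -/- retinas (2 genes, 0.0223%), and *Gm8797*, which was lower (1 gene, 0.0111%). *Sstr2* had 112, 189, 248, 294 and 375 CPM (log2 difference 1.57, SE 0.19, edgeR adjusted p = 0.00412). Its message was therefore not depleted in the retinas labelled -/-. The position of the deletion is not given in the sources used here, and counts from 3' ends do not check it. *Mxra7*, a matrix remodelling associated gene, had 120, 239.8, 218, 314 and 318 CPM (log2 difference 1.39, SE 0.14, edgeR adjusted p = 6.83e-04), with the +/- retinas between the others. It lies at chr11:116803062-116828046 (GRCm38), on the chromosome of *Sstr2* (chr11:113619342-113626028). The count of calls rose to 39 without the first -/- retina, 38 without the second and 12 without the second +/- retina, the 3 genes included each time.

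Between -/- and +/- retinas, the comparison with 2 retinas in each group, 1 of 8984 genes (0.0111%) passed and 372 had an unadjusted p under 0.05. This was *Gm8797*, with 271, 457, 249, 23.7 and 18.8 CPM (log2 difference -4.03, SE 0.30, edgeR adjusted p = 2.51e-05). Both -/- retinas were far below the other 3, in primary progenitors too (17.5 and 19.7 CPM against 220 to 415). The *Gm8797* transcript (chr3:5750806-5751295) aligns to the ubiquitin gene *Ubb* over 384 of its 490 bases at 98.2% identity. Reads of either may therefore be assigned to the other, and the value of *Gm8797* is uncertain. *Ubb* differed by 0.21 (SE 0.047) between -/- and +/- retinas and did not pass (edgeR adjusted p = 0.840). Against +/+ it differed by 0.043 (SE 0.057). How reads were divided between the 2 genes was not tested. *Sstr2* itself differed by 0.62 (SE 0.14) between -/- and +/- retinas and did not pass (edgeR adjusted p = 0.840). Without the first or the second -/- retina 21 and 18 genes passed, *Sstr2* among the 21. The 2 comparisons share the -/- retinas.

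Fate genes did not pass in either comparison, where 0.0334% (against +/+) and 0.0111% (against +/-) of all 8984 genes did. Counts of 0 in lists of 3 to 15 genes are near these shares and are no result about the lists. Of the 9 proneural factors tested 0 passed, with a median log2 difference of -0.085 against +/+ and -0.064 against +/- retinas, where the medians over all genes were 0.00033 and 0.00058. Of the 10 Notch members, 10 exit genes, 8 photoreceptor and bipolar factors, 6 amacrine and horizontal factors, 3 ganglion cell factors, 14 progenitor factors and 15 G2 and mitosis genes tested, 0 passed in both. *Neurog2* differed by -0.12 (SE 0.19) from +/+ and *Otx2* by 0.039 (SE 0.12). *Atoh7*, high in the second -/- retina alone, differed by 0.40 (SE 0.34). All 15 S phase genes had positive differences against +/+ (median 0.28) and 13 of 15 against +/- (median 0.23), with 0 past the threshold. Over all 8984 genes, 4503 differences were positive against +/+ and 4497 against +/-. Members of a list are not independent replicates, and both comparisons use the same -/- retinas. The summed S phase level was 1375, 1490.2, 1370.1, 1825 and 1557 CPM, highest in the first -/- retina. In that retina 21.7% of cells held 10 or more S phase UMIs after thinning, against 10.3% to 15.1% in the other 4. Against +/+ the largest of these was that of *Cdc6*, a replication licensing factor, at 8.43, 21.3, 20.3, 25.7 and 22.8 CPM (log2 difference 1.50, SE 0.42, edgeR adjusted p = 0.803), where the +/+ retina was below the other 4. Against +/- it was that of *Rrm2*, a ribonucleotide reductase subunit, at 94.4, 92.8, 86.9, 189.5 and 118 CPM (log2 difference 0.79, SE 0.20, edgeR adjusted p = 0.840). Leaving out 1 -/- retina brought single list members past the threshold against +/+, namely *Atoh7* without the first and *Hes1*, *Rrm2* and *Ccnb1* without the second. Against +/- it brought *Atoh7*, *Nfib* and *Cdc20* past it without the first and *Rrm2* without the second.

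Other large differences without overlap between the groups did not pass either. Among genes with a mean of at least 50 CPM, against +/+ the largest positive log2 differences were *Mettl23* (1.14), *Fos* (0.94) and *Ldha* (0.94), and the largest negative ones the histone genes *Hist1h2ae* (-1.85) and *Hist1h3c* (-1.84), the ribosomal gene *Rpl29* (-1.66), which has processed copies that could take its reads, and the securin gene *Pttg1* (-1.53). Against +/- the positive ones were *Hist3h2ba* (0.82), *Mcm2* (0.72) and *Tmem160* (0.58), and the negative ones *Cwc22* (-1.09), *Sat1* (-0.82), *Cdc20* (-0.73) and *Cstf3* (-0.72). With 1 +/+ retina, 34.5% of the 3101 genes of at least 50 CPM were higher without overlap and 33.3% lower, and 15.2% and 17.9% against the 2 +/- retinas. Lack of overlap is therefore common among all genes.

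**Figure D5:**
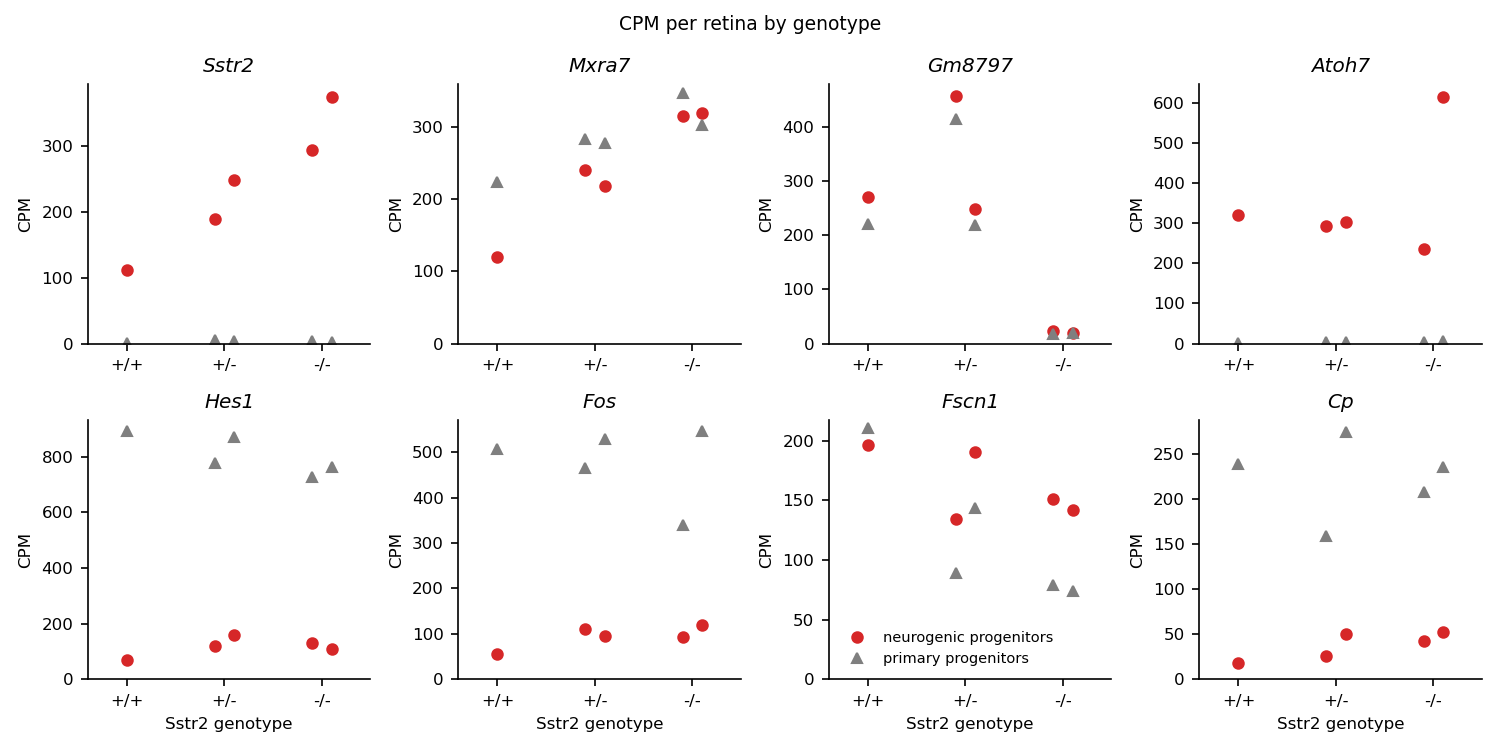
CPM (vertical axes, starting at 0) of 8 genes in neurogenic (red circles) and primary progenitors (gray triangles) of each retina, by *Sstr2* genotype as labelled. *Gm8797* is at 23.7 and 18.8 CPM in -/- neurogenic progenitors against 249 or more in the other retinas, and *Hes1* is lowest in the +/+ retina, at 70.0 CPM.

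Among the neuropeptide and receptor genes of the study, 7 of 13 were in the table, and *Sst*, *Sstr1*, *Sstr3*, *Sstr4*, *Galr1* and *Oprd1* were not. *Sstr2* and *Penk* were highest in neurogenic progenitors, *Penk* at 14.3, 24.2, 25.2, 21.7 and 23.8 CPM against 3.89 in amacrine cells. *Npy* was below primary progenitors, at a mean of 3.88 against 45.7 CPM. *Gal* averaged 5.04 CPM, *Npy1r* and *Oprm1* under 0.5 CPM, and *Sstr5* had 0 UMIs. Of the 3 members tested, *Sstr2* alone passed, against +/+, and without the first -/- retina it passed against +/- too.

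Whether the genotype difference was the same in primary progenitors was tested directly, with the retina as a block. Of 10324 genes 7 passed (0.0678%, edgeR with Benjamini-Hochberg adjustment), and 511 had an unadjusted p under 0.05. The difference was more positive in neurogenic progenitors for 6 of them (0.0581%) and more negative for 1 (0.00969%). *Hes1* was the member of the Notch and progenitor lists among them. It was 70.0 CPM in +/+ neurogenic progenitors and 131 and 108 in -/- ones, while primary progenitors had 891 CPM in +/+ and 727 and 764 in -/- retinas (difference of log2 differences 1.05, SE 0.19, edgeR adjusted p = 0.0134). The 2 +/- retinas, at 121 and 159 CPM, were also above +/+, so that -/- and +/- retinas overlapped. The immediate early gene *Fos* behaved alike, with 54.8 CPM in the +/+ retina and 92.8 to 119 in the other 4. Without the 5% of cells with most UMIs the *Hes1* value was 0.38 and no longer passed (edgeR adjusted p = 0.995), and DESeq2 called 0 genes, with *Hes1* at a like 1.05 (DESeq2 adjusted p = 1.00). With 1 of the +/- or -/- retinas left out, 13 to 21 genes passed, *Hes1* among them each time.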

How the data were processed

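Single-cell counts of the P0 library were used. Per the labels, reads of mouse (mm10) were processed with Cell Ranger 3.1.0 and Seurat 3. The authors deposited whole-number UMI counts for each gene in each cell, not normalized, after assigning cells to samples with deMULTIplex and naming types by cluster markers. The deposited SCT-corrected values were not used here, and of the other libraries only the cell tables, to count cells and shared barcodes; filters on cells are not given in the sources used here. The deposited cells were taken as they are and no doublet caller was run. UMIs of 3' ends do not scale with gene length.

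Counts were summed per retina and type and tested with edgeR 4.0.16 in R 4.3.3 (quasi-likelihood, TMM, filterByExpr, Benjamini-Hochberg, threshold 0.05) over all 3 genotypes. The block design served the comparison with primary progenitors. DESeq2 1.42.0, other scaling, no filter, leaving out each +/- or -/- retina or the 5% of cells with most UMIs were alternatives. Tested on simulated data in which 200 genes differed 4-fold, edgeR found 83.0% (+/+ against -/-), 91.5% (+/- against -/-) and 44.0% (block design, where DESeq2 found 28.5%). False calls were 1, 12 and 3 over 8948, 8958 and 10289 genes. The simulation gave every gene the same dispersion, which was not estimated from these retinas. These figures therefore do not measure recovery in the real data or at smaller differences. The totals were 8822880 to 10793649 UMIs per retina. P-values measure only the spread between these samples, and cells are not replicates.

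The cells, markers, lists and tests were chosen with earlier results of these data known. Genes named were list members, the 15 of largest ratio, those past the threshold (at most 10 by p), and the 5 largest differences in each direction without overlap at a mean of at least 50 CPM. *Ubb* and *Xist* were named after their values were seen. Positions are from GENCODE M21 (GRCm38), promoter sequences from RefSeq, and alignments from blastn 2.17.0.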

Additional observations from a re-analysis of the deposited data

Results flagged for a closer look

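The following 7 genes stood out because the -/- minus +/+ difference in neurogenic progenitors differed from that in primary progenitors of the same retinas (edgeR, retina as a block, Benjamini-Hochberg adjusted p under 0.05). The difference of log2 differences was 1.06 for the actin bundling gene *Fscn1*, 0.89 for *Mxra7*, 1.05 for *Hes1*, 1.17 for *Fos*, 1.55 for the ceruloplasmin gene *Cp*, 0.45 for the linker histone gene *Hist1h1b* (0.33 without the second -/- retina, edgeR adjusted p = 0.143) and -0.75 for *Gm42418*. *Fscn1* had 196 CPM in the +/+ retina and 151 and 142 in -/- retinas in neurogenic progenitors, against 211 and 78.8 and 73.8 in primary progenitors. *Cp* had 17.7 CPM in +/+ and 42.4 and 52.6 in -/- neurogenic progenitors, the +/- retinas lying at 26.1 and 50.4. *Gm42418*, a locus that overlaps ribosomal RNA sequence, had 836 CPM in the +/+ retina and 454.5 to 655 in the other 4. Each value rests on a single +/+ retina, whose own variation was not measured. Without the 5% of cells with most UMIs, 4 of the 7 no longer passed. These were *Hes1* (0.38, edgeR adjusted p = 0.995), *Fos* (0.88, edgeR adjusted p = 0.452), *Cp* (1.31, edgeR adjusted p = 0.995) and *Hist1h1b* (0.34, edgeR adjusted p = 0.848). With DESeq2 0 genes passed, at nearly the same log2 values. *Hes1*, *Fos* and *Cp* were all more abundant in primary than in neurogenic progenitors. The 8 primary progenitor markers, *Hes1* among them, summed to 700.4 CPM in the +/+ neurogenic progenitors and to 851, 852, 945 and 873 CPM in the other 4 retinas, and the part of this in the values above was not tested.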

How the results depend on the processing

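Counts of called genes depended on single retinas. Against +/+ the 3 calls became 6 without a filter, 11 without the 5% of cells with most UMIs and 3 to 39 when 1 retina was left out, with 12 without the second +/-, 39 without the first -/- and 38 without the second -/- retina; all 3 genes remained called in each. Against +/- the 1 call became 2 without a filter, 2 without the 5% of cells with most UMIs and 1 to 21 with 1 retina left out (21 without the first and 18 without the second -/- retina), again including the original gene. For the comparison with primary progenitors, 7 calls became 0 with DESeq2 (36 genes at an unadjusted p under 0.05; log2 values nearly the same, as 1.06 for *Fscn1* and 1.55 for *Cp*), 16 without a filter, 3 without the 5% of cells with most UMIs (*Fscn1*, *Mxra7* and *Gm42418* kept) and 13 to 21 with 1 retina left out, 15 without the first or the second +/- retina, 13 without the first and 21 without the second -/- retina. All 7 genes remained called in these except *Hist1h1b* without the second -/- retina (0.33, edgeR adjusted p = 0.143). The cause was not tested. List counts of 0 became 1 without the first -/- retina for the proneural and ganglion lists (*Atoh7*), and 1 without the second for the Notch and progenitor lists (*Hes1*), S phase (*Rrm2*) and G2 and mitosis (*Ccnb1*) against +/+; against +/- the same held for *Atoh7*, *Nfib*, *Cdc20* and *Sstr2* without the first and *Rrm2* without the second, so these ran from 0 to 1. The share difference of -0.188 points reversed to 0.106 among progenitors alone and ran from -1.35 to 0.978 with 1 retina left out. Shares depended on depth: at 2000 UMIs *Neurog2*, *Olig2* and *Otx2* were detected in 30.8%, 13.9% and 61.4% of cells, and without thinning in 54.6%, 40.4% and 88.9%, with *Atoh7* at 47.8%. Without thinning, *Neurog2* with *Neurod4* was 0.797 times the product, with *Top2a* 1.41 and with *Olig2* 1.36. The count of 195 highest genes ran from 194 to 236 over all alternatives.

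Genotypes could not be compared in pairs. The cell table gives each retina a sample tag of its own and no replicate number shared between genotypes. Cell types were compared within a retina. Depth limits genes under about 50 CPM, where a retina holds few UMIs.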

Other observations

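Further genes differed in level along the G2 and mitosis ranges within neurogenic progenitors. *Penk* averaged 9.24, 9.73 and 37.0 CPM in cells with 0, 1 to 9, and 10 or more G2 and mitosis UMIs after thinning, with 0 UMIs in the lowest retina of both lower ranges. *Gadd45g* ran the other way, at 351, 300.1 and 212 CPM with overlapping retinas, and so did *Rorb*, at 3760.1, 3482 and 2253 CPM, where the highest retina of the upper range was 2422 CPM and the lowest of the others 2967. *Cldn5*, a tight junction gene listed among endothelial markers, averaged 16.1 CPM in neurogenic progenitors, 70.9 in amacrine cells and 1.42 in primary progenitors, while *Pecam1* and *Flt1* of the same list averaged 1.69 and 0.560 CPM.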
